A study of Mus musculus with 12 samples.

Results

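Genes of hepatic fat synthesis and the carbohydrate response were followed in livers of mice lacking interleukin-18 and of wild type mice. They are Fasn, Acaca, Acacb, Acly, Me1, Srebf1, Mlxipl, Thrsp and Pklr. Members were the array probes whose gene name is 1 of these 9, which gave 16 probes of 55681 outside the controls and 9 genes of 22131 tested. All 16 probes were well above background on all 12 arrays, and 0 were saturated. The groups were interleukin-18 knockout at 12 weeks of age, wild type at 12 weeks, interleukin-18 knockout at 6 weeks and wild type at 6 weeks, each with 3 whole livers named as biological replicates. The mice were of the BALB/c strain and received no treatment. Interleukin-18 is a cytokine of the interleukin-1 family, and the comparisons ask how its absence relates to liver gene expression at each age. The labels give neither the sex, the feeding state and the time of killing, nor which part of Il18 was deleted.

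De novo lipogenesis turns surplus carbohydrate into fatty acids in the cytosol of hepatocytes. Citrate exported from mitochondria is split to acetyl-CoA, which is carboxylated to malonyl-CoA and then built into palmitate with reducing power from NADPH. Insulin acts on this pathway largely through SREBP-1c, encoded by Srebf1, and glucose through ChREBP, encoded by Mlxipl, which binds carbohydrate response elements together with its partner Mlx. In liver the genes of the pathway are known to rise on feeding and to fall on fasting, and several of them follow the daily cycle.

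Promoter sequences of 4 members are shown because regulators act through stretches of promoters. Of the stretches marked below, only the carbohydrate response element of Pklr is of a kind tied above to a named regulator, ChREBP. Pklr, Thrsp and Acly were among the members with called differences, and Fasn had the widest spread between livers. Acacb, Mlxipl and Me1 also had called differences, and their promoters are not shown. The sequences are from RefSeq on GRCm38.p6, whose table held 14 promoters for the 9 genes. They are written 5′ to 3′ on the strand of the gene. In Pklr the capitals mark a carbohydrate response element and a CCAAT box. In Fasn and Thrsp they mark CCAAT boxes, written ATTGG where the match is on the other strand. In Acly they mark GC boxes (GGGCGG), written CCGCCC on the other strand.
Pklr, second listed start, chr3:89136423-89136542, plus strand: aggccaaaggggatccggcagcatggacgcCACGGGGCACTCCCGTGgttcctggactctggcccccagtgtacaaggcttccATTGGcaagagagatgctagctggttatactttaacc
Fasn, chr11:120824548-120824667, minus strand: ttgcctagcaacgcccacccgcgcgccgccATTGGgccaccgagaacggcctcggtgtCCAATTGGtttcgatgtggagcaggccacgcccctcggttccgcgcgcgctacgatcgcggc
Thrsp, chr7:97417551-97417670, minus strand: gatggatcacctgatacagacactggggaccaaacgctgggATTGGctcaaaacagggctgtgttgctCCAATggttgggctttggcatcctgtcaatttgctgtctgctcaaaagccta
Acly, chr11:100528001-100528120, minus strand: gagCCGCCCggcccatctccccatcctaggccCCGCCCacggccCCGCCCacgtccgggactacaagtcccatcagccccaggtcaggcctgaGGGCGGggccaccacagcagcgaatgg

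The stretch of Pklr covers bases 200 to 81 before the listed start, and its carbohydrate response element lies at bases 170 to 154. The other stretches cover the 120 bases before the start. Searched on both strands of the 250 bases before each start, the carbohydrate response element, a pair of E-box-like half-sites facing each other, was present in 32 of 32851 RefSeq promoters (0.0974%), and among the 14 promoters only in that of Pklr. CCAAT was found in 8 of the 14 promoters, of 7 genes, against 33.8% of all promoters, and the CCAATTGG of Fasn holds 2 overlapping matches. GGGCGG was found in 5 of the 14, of 4 genes, against 32.7% of all promoters. The letters CACGTG (6.02% of all promoters) and TCACNCCAC (1.05%), an E-box and a form of the sterol response element, were each found in 1 promoter of Mlxipl. A match describes these letters only. No binding was measured.

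The level of a gene is given as log2 of the processed signal relative to the array's 75th percentile, so that a difference of 1 is a 2-fold change within 1 gene, while levels of different genes cannot be compared. The 75th percentile lay between 349 and 420 scanner units, and 50.1% to 57.7% of spots were well above background. The arrays lay on 2 slides. Slide 2 held the 6 knockout arrays with replicates 2 and 3 of 12-week wild type. Slide 1 held replicate 1 of the 12-week wild type and the 3 arrays of the 6-week wild type. At 6 weeks knockout and wild type therefore lay on different slides, and genotype and slide cannot be told apart from those arrays alone. A slide term in the fit rests on the 12-week wild type, the 1 group on both slides. Il18 was at -0.03, -0.12 and 0.04 in 12-week knockout livers, against 2.25, 2.15 and 2.49 in 12-week wild type, and at -0.02, -0.04 and -0.37 in 6-week knockout livers, against 2.44, 2.41 and 2.35 in 6-week wild type. Every knockout liver lay below every wild type liver. The 8 hepatocyte markers listed were all tested and well above background on 12 arrays. The Y-linked genes Ddx3y and Eif2s3y, looked up after the data had been seen, were well above background on 12 of 12 arrays and Xist on 0.

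At 6 weeks, 3 of the 9 genes were higher in knockout livers and 0 were lower. They were Acacb, the mitochondria-associated acetyl-CoA carboxylase, Acly, ATP citrate lyase, and Mlxipl. Of all genes tested at this age 21.1% passed, 11.7% as higher in the knockout and 9.35% as lower, so 3 of 9 stands beside a background in which such calls were common. The groups did not overlap for 4 of the 9, the 3 named and Me1, each with the knockout above, against 47.9% of all genes (25.3% with the knockout above and 22.5% below). The members had a median log2 difference of 0.37, against 0.02 over all genes. In whole liver, fewer cells of a type and less RNA per cell cannot be told apart.

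At 12 weeks, 2 of the 9 were higher in knockout livers and 0 lower, namely Thrsp, a lipogenic protein induced by carbohydrate and thyroid hormone, and Pklr, the liver and red cell pyruvate kinase. Of all genes 8.21% passed, 5.65% as higher and 2.56% as lower. The knockout lay wholly above wild type for 5 of the 9, the 2 named with Acacb, Srebf1 and Mlxipl, against 17.5% of all genes (9.87% with the knockout below and 27.4% in either direction). The log2 difference was positive in 9 of 9, with a median of 0.73, against 0.01 over all genes. Most of these differences were too small for their error to pass.

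Averaged over both ages, Acacb, Acly, Mlxipl and Pklr were higher in the knockout and 0 of 9 were lower, against 20.5% of all genes called (12.7% higher and 7.85% lower). The log2 difference was positive in 9 of 9 with a median of 0.48. A fixed slide block left 0 of 9 called at 6 weeks, at 12 weeks and in the average, where Acacb had 1.16 (adjusted p = 0.11), and a random slide block left 1 of 9 in each. In the same order, the fixed block left 2.64%, 5.8% and 1.77% of all genes called, and the random block 5.54%, 7.46% and 4.46%. With age in wild type, Me1 and Mlxipl were higher and Thrsp lower at 12 weeks, 3 of 9, against 9.04% of all genes (4.61% higher and 4.43% lower). The wild type ages did not overlap for 5 of 9, 3 of them with the 12-week livers above, against 26% of all genes (12.5% above and 13.5% below). In the knockout 0 of 9 passed with age in limma, against 6.91% of all genes (3.98% higher and 2.93% lower), and 1, Mlxipl, had an unadjusted p under 0.05. The knockout ages did not overlap for 3 of 9, Me1 and Mlxipl with the 12-week livers above and Srebf1 below, against 31.9% of all genes (15.4% above and 16.5% below). The genotype difference itself differed between the ages for 1 of 9, Thrsp, against 10.3% of all genes (5.58% upward and 4.76% downward). Comparisons that share a group of livers are not independent of each other.

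**Figure D1:**
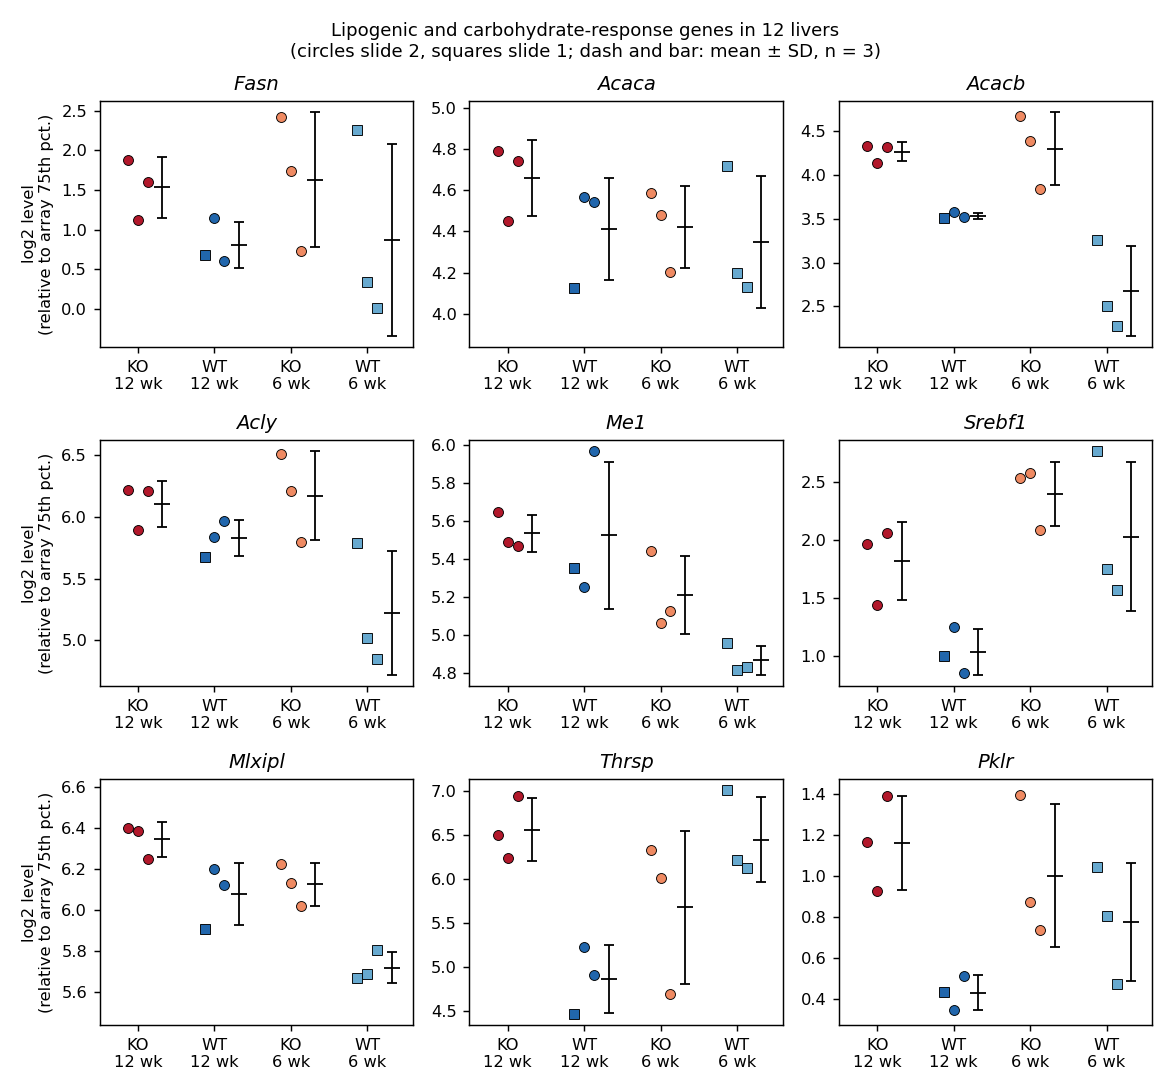
Level of each gene in each of the 12 livers, on the log2 scale relative to the array's 75th percentile, with the group mean and SD beside the points and slide 1 drawn as squares. Acacb in the 6-week groups (3.85 to 4.67 in the knockout against 2.27 to 3.26 in wild type) and Thrsp in the 12-week groups (6.23 to 6.94 against 4.47 to 5.23) are clearly apart, while Fasn spans 0.01 to 2.25 within the 6-week wild type alone.

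Among the regulators, Srebf1, which encodes SREBP-1, had levels of 1.97, 1.43 and 2.06 in 12-week knockout livers, against 0.99, 1.24 and 0.85 in 12-week wild type. The 12-week groups did not overlap, yet limma's adjusted p for the log2 difference of 0.79 ± 0.30 (SE) was 0.129 and missed the threshold. Its levels were 2.54, 2.58 and 2.08 in 6-week knockout livers, against 2.77, 1.75 and 1.57 in 6-week wild type. Here 1 wild type liver was the highest of the 6 and the groups overlapped (0.37 ± 0.30, adjusted p = 0.385). In both genotypes each 12-week liver lay below the lowest 6-week liver, with an age difference of -0.999 ± 0.296 in wild type (adjusted p = 0.0635) and -0.58 ± 0.30 in the knockout (adjusted p = 0.292). The deposited annotation places the probe at chr11:60012664-60012723 on mm9 and does not say which of the Srebf1 transcripts it reads.

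Mlxipl, the glucose-responsive regulator (probe at chr5:135613705-135613764, mm9), had the narrowest spread of the 9. Its levels were 6.40, 6.38 and 6.24 in 12-week knockout livers, against 5.91, 6.20 and 6.12 in 12-week wild type, and 6.22, 6.13 and 6.02 in 6-week knockout livers, against 5.67, 5.68 and 5.80 in 6-week wild type. Knockout livers lay above wild type at both ages without overlap. The log2 difference of 0.41 ± 0.10 at 6 weeks passed (1.33-fold, adjusted p = 0.0162, limma), that of 0.27 ± 0.10 at 12 weeks did not (adjusted p = 0.115), and the average over ages was 0.34 ± 0.07 (adjusted p = 0.0094). In wild type it was higher at 12 than at 6 weeks by 0.36 ± 0.10 (adjusted p = 0.044). Replicate 1 of the 12-week wild type, on slide 1, was 0.25 below the mean of the other replicates, on slide 2, and with the slide as a fixed block the 6-week difference was 0.15 (adjusted p = 0.619) and the age difference in wild type 0.19 (adjusted p = 0.408). The 6-week call also ended, at 0.36 to 0.40, without replicate 1 or 2 of either 6-week group, and the age call in 10 of 12 cases. The average passed in 12 of 12, but with the slide as a block it was 0.169 (fixed, adjusted p = 0.403) and 0.27 (random, adjusted p = 0.0951) and did not pass.

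Acly splits citrate to cytosolic acetyl-CoA (probe at chr11:100337674-100337733, mm9). Its levels were 6.21, 5.89 and 6.21 in 12-week knockout livers, against 5.68, 5.84 and 5.97 in 12-week wild type, and 6.51, 6.21 and 5.80 in 6-week knockout livers, against 5.79, 5.02 and 4.85 in 6-week wild type. At 6 weeks the groups met without crossing, since the lowest knockout liver (5.80) and the highest wild type liver (5.79) were almost level, and at 12 weeks they overlapped. The 6-week log2 difference was 0.95 ± 0.24 (1.93-fold, adjusted p = 0.0229, limma), and both Acly probes passed in the fit over all probes, at 0.95 and 0.75 (adjusted p = 0.024 and 0.0343). At 12 weeks the difference was 0.28 ± 0.24 (adjusted p = 0.52). With the slide as a fixed block the 6-week value was 0.73 (adjusted p = 0.442), and leaving out single arrays ended the 6-week call in 4 of 12 cases, those of replicates 2 and 3 of the wild type and 1 and 2 of the knockout, with values of 0.77 to 0.93. The average over ages was 0.62 ± 0.17 (adjusted p = 0.0328) and its call ended in 8 of 12 cases (0.52 to 0.62).

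Me1, cytosolic malic enzyme, supplies NADPH (probe at chr9:86475077-86475136, mm9). Its levels were 5.65, 5.49 and 5.47 in 12-week knockout livers, against 5.35, 5.25 and 5.97 in 12-week wild type, and 5.44, 5.06 and 5.13 in 6-week knockout livers, against 4.96, 4.81 and 4.83 in 6-week wild type. The 12-week wild type held both the highest and the lowest liver of that age, and at 6 weeks the knockout lay above. The genotype difference was 0.34 ± 0.17 at 6 weeks (adjusted p = 0.178) and 0.01 ± 0.17 at 12 weeks (adjusted p = 0.976, limma). With age Me1 was higher at 12 weeks in wild type by 0.66 ± 0.17 (1.58-fold, adjusted p = 0.0425). With the slide as a block it was 0.48 (fixed, adjusted p = 0.324) and 0.59 (random, adjusted p = 0.13), and under the replicate block the adjusted p was 0.0561, so the call was lost under each. Its 3 probes gave 0.66, 0.55 and 0.59 for that comparison in the fit over all probes, where the first passed (adjusted p = 0.0456) and the others did not (adjusted p = 0.068 and 0.0787). Leaving out 1 array ended this call in 9 of 12 cases, and without replicate 3 of the 12-week wild type, the highest, the difference was 0.44 (adjusted p = 0.0569). Me1 is the 1 member on the chromosome of Il18, with its probe 36.1 Mb from that of Il18 on mm9.

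Acaca and Acacb encode the acetyl-CoA carboxylases. Acaca makes the cytosolic malonyl-CoA used for synthesis, and Acacb makes malonyl-CoA at the outer mitochondrial membrane, where it inhibits fatty acid uptake through Cpt1a. The Acacb probe lies at chr5:114700702-114700761 and the Acaca probe at chr11:84215093-84215152 on mm9. Acacb levels were 4.34, 4.14 and 4.33 in 12-week knockout livers, against 3.51, 3.57 and 3.52 in 12-week wild type, and 4.67, 4.39 and 3.85 in 6-week knockout livers, against 3.26, 2.50 and 2.27 in 6-week wild type. Every knockout liver was above every wild type liver of both ages. Acacb had the largest 6-week difference of the 9, 1.63 ± 0.25 (3.09-fold, adjusted p = 0.00232, limma), and its other probe gave 1.52 (adjusted p = 0.00557 in the fit over all probes).

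The 12-week difference of Acacb was 0.73 ± 0.25 and missed the threshold (adjusted p = 0.0993), and the average over ages was 1.18 ± 0.18 (adjusted p = 0.00276). The genotype difference was smaller at 12 than at 6 weeks by 0.89, which did not pass either (adjusted p = 0.142). In wild type, Acacb was above its 6-week levels in each 12-week liver (0.86 ± 0.25, adjusted p = 0.0605), whereas the knockout groups overlapped between ages (-0.03 ± 0.25). With the slide as a random block the 6-week difference still passed, at 1.61 (adjusted p = 0.0249), and as a fixed block it was 1.59 and did not (adjusted p = 0.117). Replicate 1 of the 12-week wild type differed by -0.03 from the mean of replicates 2 and 3.

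Acaca passed in 0 of the 6 comparisons. Its levels were 4.79, 4.45 and 4.74 in 12-week knockout livers, against 4.12, 4.57 and 4.54 in 12-week wild type, and 4.59, 4.48 and 4.20 in 6-week knockout livers, against 4.72, 4.20 and 4.13 in 6-week wild type. The groups overlapped at both ages, with differences of 0.25 ± 0.19 at 12 weeks (adjusted p = 0.441) and 0.07 ± 0.19 at 6 weeks (adjusted p = 0.801). The 95% interval at 6 weeks ran from -0.34 to 0.49. Of its 4 probes 0 passed in any of the 6 comparisons, and 1 of them had the opposite sign at 12 weeks, -0.30, while the others gave 0.25 to 0.26.

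Fasn, fatty acid synthase (probe at chr11:120667666-120667725, mm9), varied most between livers of the same group. Its levels were 1.88, 1.12 and 1.60 in 12-week knockout livers, against 0.68, 1.14 and 0.60 in 12-week wild type, and 2.42, 1.74 and 0.72 in 6-week knockout livers, against 2.25, 0.34 and 0.01 in 6-week wild type. Knockout and wild type livers overlapped at both ages. The differences of 0.73 ± 0.56 at 12 weeks (adjusted p = 0.465) and 0.76 ± 0.56 at 6 weeks (adjusted p = 0.353) were about as large as the spread and did not pass. Leaving out single arrays moved the 6-week difference between 0.33 and 1.45, and it passed in 0 of 12 cases. The highest value came without replicate 1 of the 6-week wild type, where the average over ages passed at 1.09 (adjusted p = 0.0352). That average ran from 0.53 to 1.09 and passed in 1 of 12 cases.

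Thrsp (probe at chr7:104561649-104561708, mm9) was the 1 member whose genotype difference passed as unequal between the ages. Its levels were 6.50, 6.23 and 6.94 in 12-week knockout livers, against 4.47, 5.23 and 4.91 in 12-week wild type. Every 12-week knockout liver was above every 12-week wild type liver, by 1.69 ± 0.41 (3.22-fold, adjusted p = 0.0339, limma). At 6 weeks its levels were 6.33, 6.01 and 4.70 in knockout livers, against 7.003, 6.21 and 6.12 in wild type. There the groups overlapped and the difference was -0.77 ± 0.41 (adjusted p = 0.198).

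The 12-week minus the 6-week genotype difference of Thrsp was 2.46 ± 0.58 (adjusted p = 0.0238). In wild type the 12-week livers all lay below the 6-week livers (-1.58 ± 0.41, 2.98-fold lower, adjusted p = 0.0401), and in the knockout the groups overlapped (0.88 ± 0.41, adjusted p = 0.245). Within slide 2 alone, with 2 wild type arrays, the 12-week difference was 1.49 and did not pass (adjusted p = 0.126). The difference between ages was 2.86 under a fixed slide block and passed (adjusted p = 0.0461). It was 2.18 without replicate 1 of the 6-week wild type (adjusted p = 0.0516) and 2.27 without replicate 3 of the 12-week knockout (adjusted p = 0.059), and neither passed. The 12-week call ended when any 12-week array but replicate 2 of the wild type was left out (1.49 to 1.85), and the age call in wild type ended in 10 of 12 cases (-1.76 to -1.30). That age difference also missed the threshold with the slide as a block, at -1.98 (fixed, adjusted p = 0.102) and -1.73 (random, adjusted p = 0.0659), and under the replicate block (adjusted p = 0.0627).

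Pklr makes the last step of glycolysis, and its probe spans chr3:88948907-88949425 on mm9, longer than its 60 bases. Its levels were 1.17, 0.93 and 1.39 in 12-week knockout livers, against 0.44, 0.35 and 0.51 in 12-week wild type, and 1.40, 0.87 and 0.74 in 6-week knockout livers, against 1.05, 0.80 and 0.48 in 6-week wild type. The groups were apart at 12 weeks and overlapped at 6 weeks. The differences were 0.73 ± 0.19 at 12 weeks (1.66-fold, adjusted p = 0.0462, limma) and 0.23 ± 0.19 at 6 weeks (adjusted p = 0.419). Within slide 2 alone the 12-week value was again 0.73, without passing (adjusted p = 0.114), and leaving out single arrays ended the call in 8 of 12 cases, each 12-week array and replicate 2 of either 6-week group, with values of 0.62 to 0.85. The average over ages was 0.48 ± 0.14 (adjusted p = 0.035) and also ended in 8 of 12 cases (0.38 to 0.51).

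Pklr is also used by red cells. The summed level of the 3 erythroid markers tested, Hba-a1, Klf1 and Slc4a1, which is nearly all Hba-a1, lay between 80.6 and 115 in 12-week knockout livers, against 40.4 to 67.8 in 12-week wild type, where level 1 is the array's 75th percentile on the linear scale. At 6 weeks it lay between 73.1 and 131 in knockout livers, against 49.4 to 59.7 in wild type. At 12 weeks 2 of the 3, Klf1 and Slc4a1, passed as higher, and Hba-a1 had 0.86 (adjusted p = 0.0614, limma). At 6 weeks, where Pklr did not pass, Hba-a1 and Slc4a1 were higher and Klf1 lower. Their part in the result of Pklr was not tested, nor was whether its probe reads the liver or the red cell transcript.

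**Figure D2:**
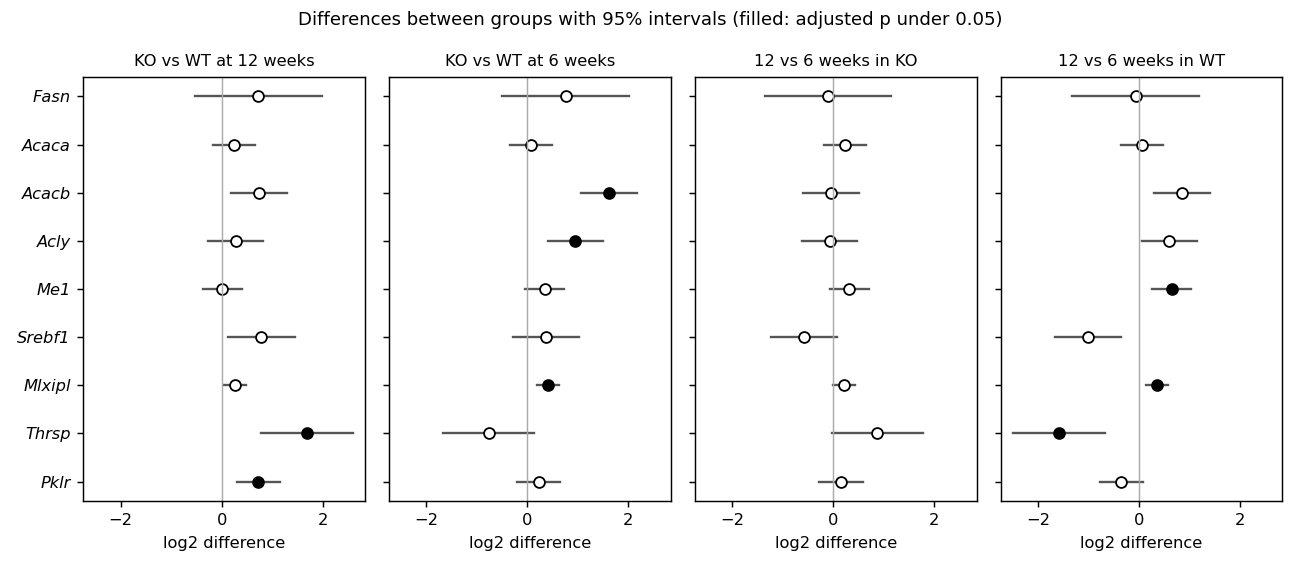
Log2 differences of the 9 genes in 4 comparisons, with 95% intervals from limma and filled points where the adjusted p is under 0.05. Acacb, Acly and Mlxipl are filled at 6 weeks, Thrsp and Pklr at 12 weeks, Me1, Mlxipl and Thrsp in the wild type age comparison and 0 in that of the knockout.

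The wider pathway was described by 64 genes in 5 lists. At 6 weeks 12 of the 64 were higher in knockout livers and 5 lower. At 12 weeks 3 were higher and 1 lower, and averaged over ages 11 were higher and 2 lower. The 12-week higher count was 9 without replicate 3 of the 12-week wild type and 1 without replicate 1 of the 12-week knockout, and 7 under normexp. With the slide as a fixed block 1 was higher and 1 lower at 6 weeks, 2 and 1 at 12 weeks, and 0 and 0 in the average. With it as a random block 6 were higher and 3 lower at 6 weeks, and 3 and 0 in the average. The genotype difference itself differed between the ages for 14 of the 64, 8 upward and 6 downward. The lists are described here by counts, and for the main fit the background shares of all genes given above apply to them too. With the slide as a fixed block the shares of all genes were 2.64% at 6 weeks, 5.8% at 12 weeks and 1.77% in the average. As a random block they were 5.54% at 6 weeks and 4.46% in the average.

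Among 14 regulators and partners, 4 were higher and 1 lower in 6-week knockout livers, with a median log2 difference of 0.25, and 0 passed at 12 weeks, where the median was -0.01. Insig2, which holds the SREBP precursors in the endoplasmic reticulum, averaged 5.98 ± 0.05 in 6-week knockout livers, against 3.96 ± 0.50 in 6-week wild type (SD, n = 3 each), a difference of 2.02 ± 0.22 (SE, adjusted p = 0.00032, limma). At 12 weeks it averaged 4.81 ± 0.22 in the knockout, against 5.35 ± 0.17 in wild type, a difference of -0.54 (adjusted p = 0.152), and the 2 differences were unequal by -2.56 ± 0.31 (adjusted p = 0.0011). Ppargc1b, a coactivator of SREBP-1, was lower at 6 weeks, with -1.69 ± 0.27 (adjusted p = 0.0029) and differed by -0.01 at 12 weeks. Mlxip, a paralogue of Mlxipl, was higher by 0.59 ± 0.16 at 6 weeks (adjusted p = 0.0289), and at 12 weeks its difference was 0.50 (adjusted p = 0.0829). Under a fixed slide block Ppargc1b had -1.59 (adjusted p = 0.143) and Mlxip 0.52 (adjusted p = 0.399) at 6 weeks, and under a random one Ppargc1b passed (adjusted p = 0.0319) and Mlxip did not (adjusted p = 0.173). Mlx and Usf2, named for completing the count after their values were seen, were the other 2 that rose.

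Of 12 genes supplying citrate, acetyl-CoA and NADPH, 3 were higher and 1 lower at 6 weeks and 0 passed at 12 weeks. Pgd, of the NADPH-yielding pentose phosphate pathway, was higher at 6 weeks by 0.65 ± 0.14 (adjusted p = 0.0116, limma), and G6pdx, the enzyme ahead of it, had 0.37 (adjusted p = 0.0786). Slc25a10, the mitochondrial dicarboxylate carrier, was lower at 6 weeks, with -0.42 ± 0.10 (adjusted p = 0.0208), and its difference at 12 weeks was 0.38 (adjusted p = 0.0502). The difference between the ages was 0.80 ± 0.15 (adjusted p = 0.0084). At 6 weeks neither Pgd (0.49 and 0.59) nor Slc25a10 (-0.57 and -0.48) passed with the slide as a fixed or a random block.

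Of 16 genes of carbohydrate entry and glycolysis, 2 were higher and 2 lower at 6 weeks, and 3 were higher and 1 lower at 12 weeks. G6pc, the catalytic subunit of glucose-6-phosphatase, which releases glucose, averaged 7.99 ± 0.15 in 6-week knockout livers, against 6.10 ± 0.39 in 6-week wild type (SD, n = 3 each), and 5.44 ± 0.18 in 12-week knockout livers, against 7.21 ± 0.64 in 12-week wild type. It was thus higher at 6 weeks by 1.89 ± 0.29 (SE, adjusted p = 0.0022, limma) and lower at 12 weeks, with -1.76 ± 0.29 (adjusted p = 0.0074). The 6-week difference was 2.26 and did not pass with the slide as a fixed block (adjusted p = 0.0602), and was 2.03 and passed as a random one (adjusted p = 0.0164). Slc2a2, the glucose transporter GLUT2, went the other way at 6 weeks, with -1.04 ± 0.12 (adjusted p = 0.00054), and had 0.40 at 12 weeks (adjusted p = 0.072).

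Pfkfb1, the liver bifunctional enzyme that sets fructose 2,6-bisphosphate and so glycolysis, was higher at 12 weeks by 1.41 ± 0.17 (adjusted p = 0.0022, limma) and had 0.25 at 6 weeks (adjusted p = 0.305). Gckr, named after its values were seen, was also higher at 12 weeks, with 0.39 (adjusted p = 0.043). Within slide 2 alone Pfkfb1 had 1.38 (adjusted p = 0.0236) and G6pc -1.64 (adjusted p = 0.044), so both passed there as well.

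Of 8 genes that control acetyl-CoA carboxylase, 0 passed in any of the 6 comparisons in limma, and 3, named next, had an unadjusted p under 0.05 in at least 1 of them. Mlycd, malonyl-CoA decarboxylase, had -0.28 at 6 weeks (adjusted p = 0.0518) and 0.17 at 12 weeks (adjusted p = 0.272). Prkaa1, a catalytic subunit of AMP-activated kinase, had 0.22 at 6 weeks and 0.23 at 12 weeks (adjusted p = 0.155 and 0.207), and Ppp2ca, a phosphatase subunit, 0.21 and 0.06 (adjusted p = 0.0775 and 0.688).

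Of 14 genes of desaturation, elongation and esterification, 3 were higher and 1 lower at 6 weeks and 0 passed at 12 weeks. Scd1, stearoyl-CoA desaturase, averaged 8.28 ± 0.23 in 6-week knockout livers, against 7.20 ± 0.29 in 6-week wild type (SD, n = 3 each), a difference of 1.08 ± 0.16 (SE, adjusted p = 0.0017, limma). At 12 weeks its difference was 0.54 ± 0.16 (adjusted p = 0.0596). Agpat2, an acyltransferase of glycerolipid synthesis, was higher at 6 weeks by 0.90 ± 0.11 (adjusted p = 0.00085), and Elovl5, an elongase of polyunsaturated fatty acids, by 0.81 ± 0.12 (adjusted p = 0.0019). Their differences at 12 weeks were 0.15 and 0.09. Dgat2, which makes triglyceride, was named after its values were seen as the 1 that fell, at -0.36 (adjusted p = 0.038). With the slide as a fixed block Scd1 (0.91), Agpat2 (0.77) and Elovl5 (0.75) did not pass at 6 weeks, and as a random block each did, while Insig2 and Slc2a2 passed with either block.

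**Figure D3:**
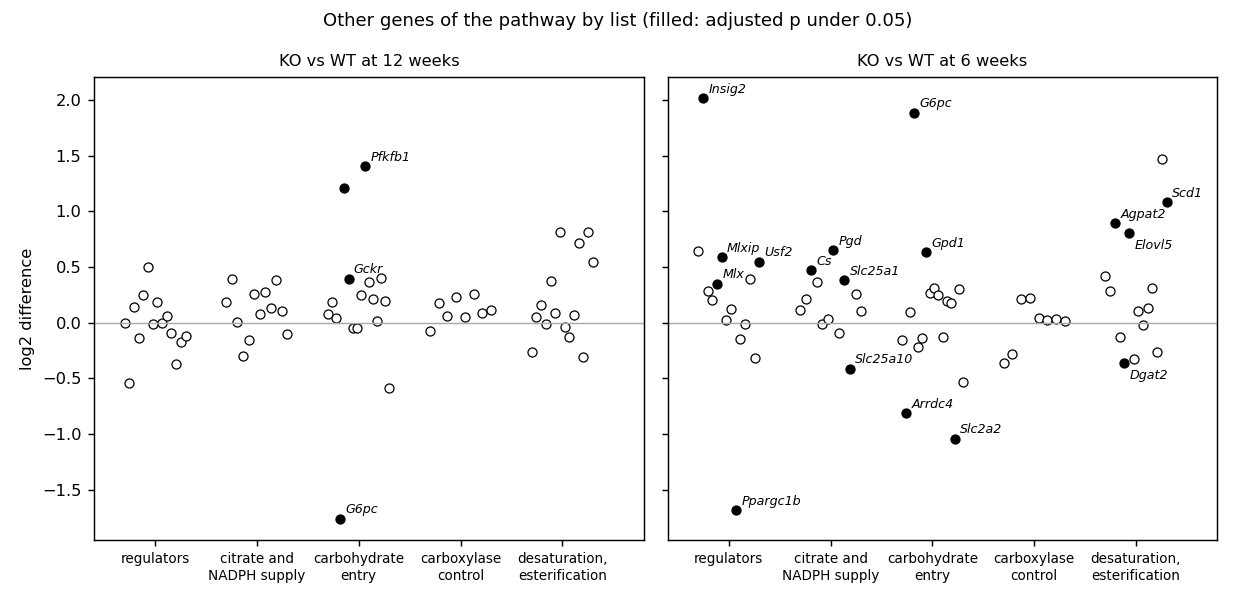
Log2 differences between knockout and wild type for the 64 other pathway genes, by list, at 12 weeks (left) and 6 weeks (right), with filled points where the adjusted p is under 0.05 and names beside most of them. At 12 weeks 4 genes are filled, all in the carbohydrate list, and at 6 weeks 17 genes are, spread over 4 of the 5 lists.

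Other lists moved between the same groups. The summed linear level of 12 clock genes lay between 207 and 235 in 12-week knockout livers, against 83.2 to 157 in 12-week wild type, and between 25.3 and 32.3 in 6-week knockout livers, against 224 to 258 in 6-week wild type. Such sums, here and for the lists below, are set mostly by the brightest probes. They do not describe a list whose genes move in opposite directions. In number, 5 of the 12 were higher and 0 lower at 12 weeks, and 3 were higher and 8 lower at 6 weeks. Of all genes, 5.65% were higher and 2.56% lower at 12 weeks, and 11.7% higher and 9.35% lower at 6 weeks. Of 10 genes that follow insulin and feeding, 3 were lower at 12 weeks, Igfbp1 at -2.66, Pdk4 at -1.28 and Irs2 at -0.94, and 2 were higher at 6 weeks, Pdk4 at 2.36 and Irs2 at 0.77. The 2 of 10 at 6 weeks is near the share of all genes that passed in either direction, 21.1%. The 3 of 10 lower at 12 weeks stand beside 2.56% of all genes lower and 8.21% in either direction. The hepatocyte markers summed to 4874 to 5461 in 12-week knockout livers, against 5215 to 5513 in 12-week wild type, and to 5224 to 6044 in 6-week knockout livers, against 5646 to 5865 in 6-week wild type, with overlap at both ages. Of the 8, named here after their values were seen, Cps1 was higher (0.53) and Apoa1 lower (-0.41) at 12 weeks, and Tat (0.92) and Apoa1 (0.30) were higher at 6 weeks. Their 2 of 8 at 6 weeks is likewise near the share of all genes. The 1 higher and 1 lower of 8 at 12 weeks stand beside 8.21% of all genes in either direction. Of 8 white adipocyte markers, Adipoq, Plin1 and Lep were not tested for lack of signal, and the other 5 summed to 12.79 to 15.04 in 12-week knockout livers, against 9.91 to 12.5 in 12-week wild type, and to 9.96 to 11.1 in 6-week knockout livers, against 11.3 to 15.7 in 6-week wild type. Of these 5, likewise named afterwards, Cidec was higher at 12 weeks (1.57) and Pparg lower at 6 weeks (-1.12). Of 3 brown adipocyte markers Ucp1 was not tested. The other 2 summed to 20.45 to 35.46 in 12-week knockout livers, against 35.26 to 58.79 in 12-week wild type. At 6 weeks they summed to 120.4 to 142.8 in knockout livers, against 1.259 to 3.622 in wild type. Of these 2 genes 1 passed as higher at 6 weeks and 0 passed at 12 weeks. The part of the clock, feeding, adipocyte and erythroid genes in the results above was not tested.

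Livers of 1 group differed from each other along a shared axis. When each level was set against the mean of its group, replicate 1 of the 6-week knockout was above its group in 9 of 9 genes and replicate 3 in 0 of 9. Replicate 1 of the 6-week wild type was above its group in 8 of 9, while replicates 2 and 3 were above in 1 of 9 each. The mean deviation of the 9 genes ran from -0.41 in replicate 3 of the 6-week knockout to 0.50 in replicate 1 of the 6-week wild type. In 12-week livers it stayed between -0.21 and 0.11.

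The 9 genes did not follow the shared axis equally. Across the 12 livers, with group means removed, the 21 pairs among Fasn, Acaca, Acacb, Acly, Srebf1, Thrsp and Pklr had Pearson correlations of 0.68 to 0.98 with a median of 0.85. The 15 pairs that include Me1 or Mlxipl had -0.07 to 0.48 with a median of 0.23. Me1 and Mlxipl were set apart because their correlations were the lowest, so the contrast between the sets of pairs was built in and tests nothing. The correlations are descriptions over 12 arrays that share a scaling. Leaving out 1 liver at a time kept the median of the 21 pairs between 0.81 and 0.88, and the lowest single pair was then 0.57. Against the mean of the other members, Acly followed most closely at 0.98, then Acacb at 0.96 and Fasn at 0.94, and Me1 at 0.30 and Mlxipl at 0.18 least.

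The within-group SD was 0.78 for Fasn, 0.56 for Thrsp, 0.40 for Srebf1, 0.34 for Acacb and 0.33 for Acly, against a median of 0.17 over all genes. It was 0.26 for Pklr, 0.24 for Acaca, 0.23 for Me1 and 0.11 for Mlxipl, so that 8 of 9 were above that median.

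**Figure D4:**
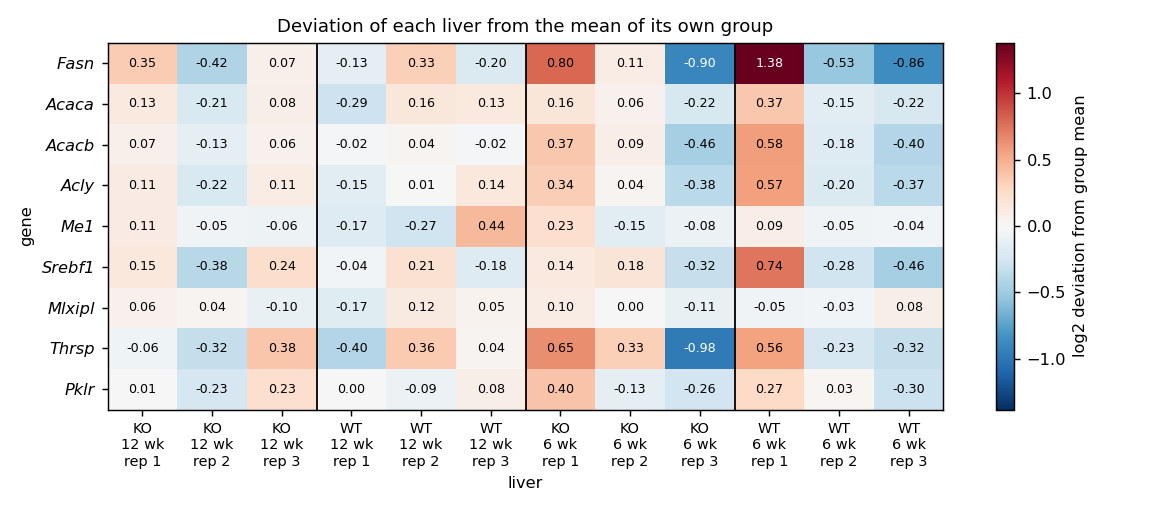
Deviation of each liver (columns) from the mean of its own group for the 9 genes (rows), on the log2 scale, red above and blue below the group mean. The deviations run from -0.98 for Thrsp in replicate 3 of the 6-week knockout to 1.38 for Fasn in replicate 1 of the 6-week wild type, and the rows of Me1 and Mlxipl follow the others little.

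Outside the members, 172 of 22116 genes (0.778%) correlated at 0.8 or more with the mean deviation of the 9 genes and 111 (0.502%) at -0.8 or below, a view chosen after the data had been seen. Of the 64 pathway genes 8 did so upward (12.5%) and 1 downward, Mlxip at -0.81. The 8 were Mid1ip1, a partner of Thrsp that activates acetyl-CoA carboxylase, at 0.96, Pgd at 0.93, Elovl6 at 0.89, Scd1 and the fructokinase Khk at 0.88, Tkfc, which handles fructose-derived triose, at 0.84, Fads1 at 0.82 and Insig1 at 0.81. Of the insulin and feeding list 3 of 10 lay at -0.8 or below, Cpt1a, the mitochondrial fatty acid importer, at -0.86, the fasting hormone Fgf21 at -0.82 and Angptl4 at -0.81. Of the 12 clock genes 0 passed either limit, and Clock came closest at -0.7995. Others of that list were weak or opposite, with Pck1 at -0.32, Irs2 at -0.05 and Sesn1 at 0.59. The part of feeding state in this pattern was not tested.

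By the rule for likeness, the highest Pearson correlation over the 12 arrays with the mean centred level of the 9 genes, the 5 most similar genes of 22116 ranked were Gga2, Klhl36, Ggt6, Ripor3 and 1 probe for an intergenic region. Their Pearson correlations were 0.94, 0.94, 0.93, 0.92 and 0.91, with Spearman coefficients of 0.93, 0.93, 0.96, 0.91 and 0.92. They were ranked on these 12 arrays, which share a scaling, and the correlations are a description.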

How the data were processed

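Total RNA of whole liver, labelled with Cy3 as cRNA, was hybridised to 1-colour Agilent arrays, 12 in all. The authors scanned them with Agilent Feature Extraction (version 10.7.3.1, per the file headers), which gave the background-subtracted processed signal, an intensity. The deposited value table holds the same signal, within 0.497%, and served as an alternative. From the deposited intensity, log2 was taken and each array's 75th percentile subtracted. Control and outlier spots were left out, and a probe was tested where every array of some group flagged it as well above background, 29807 of 55681. For genes with several probes, the probe with the highest mean stood for the gene. Gene names follow the files, updated through the accession where RefSeq held it. Groups were compared in limma 3.58.1 (R 4.3.3) over all 12 arrays and 22131 genes, with Benjamini-Hochberg adjustment at 0.05, after a test on simulated data. Residual degrees of freedom were 8. Arrays limit precision by their number, 3 a group. The labels call them biological replicates.

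The members and lists were chosen with earlier results of these data known. All members are named, with up to 3 genes a list by the smallest p for the average genotype difference or the difference between ages, and the 5 genes most like the members. Alternatives were the normalization, background correction, probe filter, slide, replicate block, choice of probe, the deposited values, the groups fitted and leaving out each array. Some genes of the lists are counted but not reported here by name.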

Additional observations from a re-analysis of the deposited data

Results flagged for a closer look

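Thrsp is the member whose genotype difference differed between the ages by a test of that difference. As 1 of 9 members it stands beside 10.3% of all genes, so the count of members is near that share. The 12-week minus the 6-week difference between knockout and wild type was 2.46 ± 0.58 (SE, log2) with an adjusted p of 0.0238 in limma, and its 95% interval ran from 1.17 to 3.74. It combined a difference of 1.69 at 12 weeks, with 3 of 3 knockout livers above every wild type liver, and one of -0.77 at 6 weeks that did not pass. Leaving out 1 array ended the call of the difference between ages in 2 of 12 cases, and it was also lost without the filter on dim probes.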

How the results depend on the processing

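With the slide as a fixed block, genes called were 585 at 6 weeks (4662 without it), 392 for the average (4545) and 728 for age in wild type (2000), and members higher were 0 at 6 weeks, 0 at 12 weeks, 0 for the average and 0 for age in wild type, where 0 were lower. As a random block, genes were 1227, 987 and 1079 and members higher 1 at 6 weeks, 1 at 12 weeks, 1 for the average and 0 for age in wild type, with 0 lower. Within slide 2 alone, 731 genes (1817) and 0 members were called at 12 weeks. Without a filter on dim probes, genes were 825 at 12 weeks, 3015 for the average, 1230 for age in wild type, 730 for age in the knockout (1529) and 1341 for the difference between ages (2288), with 0, 2, 0, 0 and 0 members higher and 0 lower for age in wild type. Fitting the compared groups only gave 378 genes at 12 weeks and 395 for age in wild type, with 0 members higher and 0 lower there. At 12 weeks quantile normalization and normexp each left 1 member higher, for age in wild type normexp gave 2 lower, and the mean over probes gave 1 higher. With the replicate block, 0 members were higher at 12 weeks, and genes called were 4060 at 6 weeks and 1421 at 12 weeks. For age in wild type that block gave 1 member higher and 0 lower. The 1 was Acacb (0.86, adjusted p = 0.0459, limma), not called in the main fit, while Me1, Mlxipl and Thrsp lost their calls. Same-numbered arrays correlated at -0.0859 to 0.18 in their deviations from group means, and not every array correlated best with its own number, so the numbers were not taken as pairs. Differences near 0 changed sign. Acaca had -0.36 (fixed) and -0.0947 (random) at 6 weeks, -0.13 (fixed) for the average and -0.22 (fixed) and -0.0487 (random) for age in wild type. Me1 at 12 weeks had -0.0357 (quantile), -0.0262 (normexp), -0.0754 (fixed and slide 2 alone) and -0.0226 (random). The difference between ages was 0.0966 (fixed) and 0.0168 (random) for Fasn and 0.0285 (fixed) for Mlxipl. Leaving out 1 array at a time gave 2541 to 6205 genes at 6 weeks, 680 to 2073 at 12 weeks, 2810 to 5383 for the average, 982 to 3809 for age in wild type, 628 to 1835 in the knockout and 1562 to 3318 for the difference, with 1 to 4, 0 to 4, 2 to 6, 0 to 2, 0 to 0 and 0 to 1 members higher, and 0 to 1 lower for age in wild type and for the difference. Values that reversed then ranged from -0.0352 to 0.26 (Acaca, 6 weeks), -0.12 to 0.23 (Me1, 12 weeks), -0.49 to 0.63 (Fasn) and -0.0455 to 0.25 (Acaca) with age in wild type, -0.55 to 0.30 (Fasn), -0.26 to 0.15 (Acacb) and -0.26 to 0.10 (Acly) in the knockout, and -0.73 to 0.39 (Fasn) and -0.0083 to 0.29 (Acaca) for the difference. Without replicate 1 of the 6-week wild type, 4 members were higher at 12 weeks, Acacb (0.73, adjusted p = 0.0422) and Srebf1 (0.79, adjusted p = 0.0421) being added. Over members, comparisons and settings other than leaving out arrays, 594 values were set against the main fit. Of these 533 kept side and direction, 44 lost the call, 4 gained it and 13 reversed. Leaving out arrays gave 648 values, of which 543 kept both, 68 lost the call, 10 gained it and 27 reversed. Most values belong to differences not called in the main fit, which count as kept while they stay uncalled with the same sign. These tallies therefore do not measure how stable the calls were. The causes were not tested.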
